A study of Mus musculus with 13 samples.

Results

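A set of 9 genes that mark how far a thymocyte has matured, and that equip it to leave the thymus, was followed on every array of a study of the transcription factor Sox4. They were chosen by name from 19752 genes with a single annotated symbol: Cd24a, Foxo1, Klf2, S1pr1, Ccr7, Cd44, Ms4a4b, Slfn1 and Slfn2. Each had 1 probe set. The cells were immature Vγ2 γδ thymocytes (V2: γδ T cell receptor and Vγ2 positive, HSA high, without CD4 and CD8) and double positive thymocytes (DP: CD4 and CD8 positive), sorted from the thymus of 2-week-old mice of mixed sex that were wild type (WT) or had a conditional knockout of Sox4 (cKO). The driver of the deletion and the pooling of animals are not given in the sources used here.

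There were 13 arrays by label, 4 of V2 cells from WT mice, 4 of V2 cells from cKO mice, 2 of DP cells from WT mice and 3 of DP cells from cKO mice. The V2 titles are written in 2 ways, V2imm and immV2, and the labels do not say what that difference stands for. Nothing in the labels says that replicates came from separate animals, so each p-value rests on the scatter among these arrays, which may be technical. Values are log2 of the normalised intensity, and a difference of 1 is a doubling. An intensity cannot tell fewer cells of a type from less RNA per cell, and levels are not compared between genes.

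Of the 13 arrays, 2 went against their labelled population. On V2 WT replicate 5 (immV2) the DP genes Cd4 and Rag1 stood at 12.65 and 13.02 and the γδ gene Sox13 at 7.73, while on DP cKO replicate 5 they stood at 7.47, 6.87 and 11.49. On the other V2 arrays Cd4 was 6.71 to 7.36 and Sox13 9.38 to 11.16, and on the other DP arrays Cd4 was 12.36 to 12.62 and Sox13 7.83 to 8.18. Both arrays were shown apart, the fits used the other 11, and fits of all 13 as labelled are given beside them. On the arrays kept, Sox4 itself was 8.64 to 9.68 in V2 WT and 8.07, 8.11, 8.23 and 9.60 in V2 cKO. The last of these was V2 cKO replicate 5 (V2imm). It was 9.37 and 8.55 in DP WT and 8.74 and 8.68 in DP cKO. Of the arrays shown apart, V2 WT replicate 5 (immV2) had Sox4 at 8.39 and DP cKO replicate 5 at 8.94. The probe set's place relative to the deleted part of Sox4 is not given, so these values do not check the deletion.

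Cd24a encodes HSA (CD24), a surface glycoprotein that is abundant on immature thymocytes and is lost as they mature, and it was also the sort marker here. In maturing T cells the forkhead factor Foxo1 promotes Klf2, and Klf2 promotes S1pr1, the receptor for the sphingosine 1-phosphate gradient that draws mature cells out of the thymus. Ccr7, Cd44, Ms4a4b and the Schlafen genes Slfn1 and Slfn2 are also raised or regulated as T cells mature and become quiescent.

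The promoter table (RefSeq, GRCm38.p6) held 6 of the 9 genes. The 250 bases before the start of 4 of them are shown. They were picked because Klf2, Ms4a4b and Slfn2 were called between the V2 title sets. Slfn1, a dim gene on the same chromosome and strand as Slfn2, was not. Capitals mark matches to CCNCNCCC, a KLF-type motif, on either strand, with overlapping matches run together.
Klf2 (chr8:72318812-72319061, plus strand): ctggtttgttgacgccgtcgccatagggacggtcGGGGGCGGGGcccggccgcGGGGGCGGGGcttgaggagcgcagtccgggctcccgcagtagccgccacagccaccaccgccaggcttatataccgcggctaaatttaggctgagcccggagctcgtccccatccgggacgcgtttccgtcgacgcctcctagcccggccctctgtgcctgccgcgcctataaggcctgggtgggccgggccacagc
Ms4a4b (chr19:11443308-11443557, plus strand): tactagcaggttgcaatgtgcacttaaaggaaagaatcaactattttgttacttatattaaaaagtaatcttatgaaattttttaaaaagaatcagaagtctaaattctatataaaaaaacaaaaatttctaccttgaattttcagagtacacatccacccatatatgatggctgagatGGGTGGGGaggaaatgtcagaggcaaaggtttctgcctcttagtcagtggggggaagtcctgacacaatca
Slfn2 (chr11:83064862-83065111, plus strand): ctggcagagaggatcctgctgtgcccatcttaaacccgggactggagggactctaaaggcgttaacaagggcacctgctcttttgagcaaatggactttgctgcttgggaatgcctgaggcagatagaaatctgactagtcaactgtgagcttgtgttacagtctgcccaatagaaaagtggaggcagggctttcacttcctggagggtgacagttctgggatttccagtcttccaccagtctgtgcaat
Slfn1 (chr11:83116570-83116819, plus strand): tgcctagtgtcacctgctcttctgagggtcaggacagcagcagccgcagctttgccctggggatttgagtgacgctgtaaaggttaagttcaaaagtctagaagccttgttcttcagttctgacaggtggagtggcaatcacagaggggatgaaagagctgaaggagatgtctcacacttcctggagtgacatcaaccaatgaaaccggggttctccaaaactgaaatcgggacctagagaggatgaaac

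The Klf2 window held 4 overlapping KLF-type matches in 2 clusters and the Ms4a4b window 1, while the 2 Schlafen windows held none. Of all 32851 promoters of the table, 45.9% held such a match in a window of the same length, and 4 of the 6 members did (Cd44 and Foxo1 being the others). GTAAACA (a FOXO motif) was in 3.17% of all windows and AACAAAG (a SOX motif) in 5.03%, and neither was in any of the 6. These are letter matches only.

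Within V2 the called differences lay between the 2 title sets: the arrays titled immV2 had less Cd24a and more Klf2, S1pr1, Ms4a4b and Slfn2 than those titled V2imm. With limma, 4 members were higher and 1 was lower in immV2 (adjusted p below 0.05 over all genes), where 2.5% of all genes were called. The plot of values by array shows Klf2, S1pr1, Ms4a4b and Slfn2 apart between circles and filled squares, while Cd24a, Slfn1 and Ccr7 overlap.

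**Figure D1:**
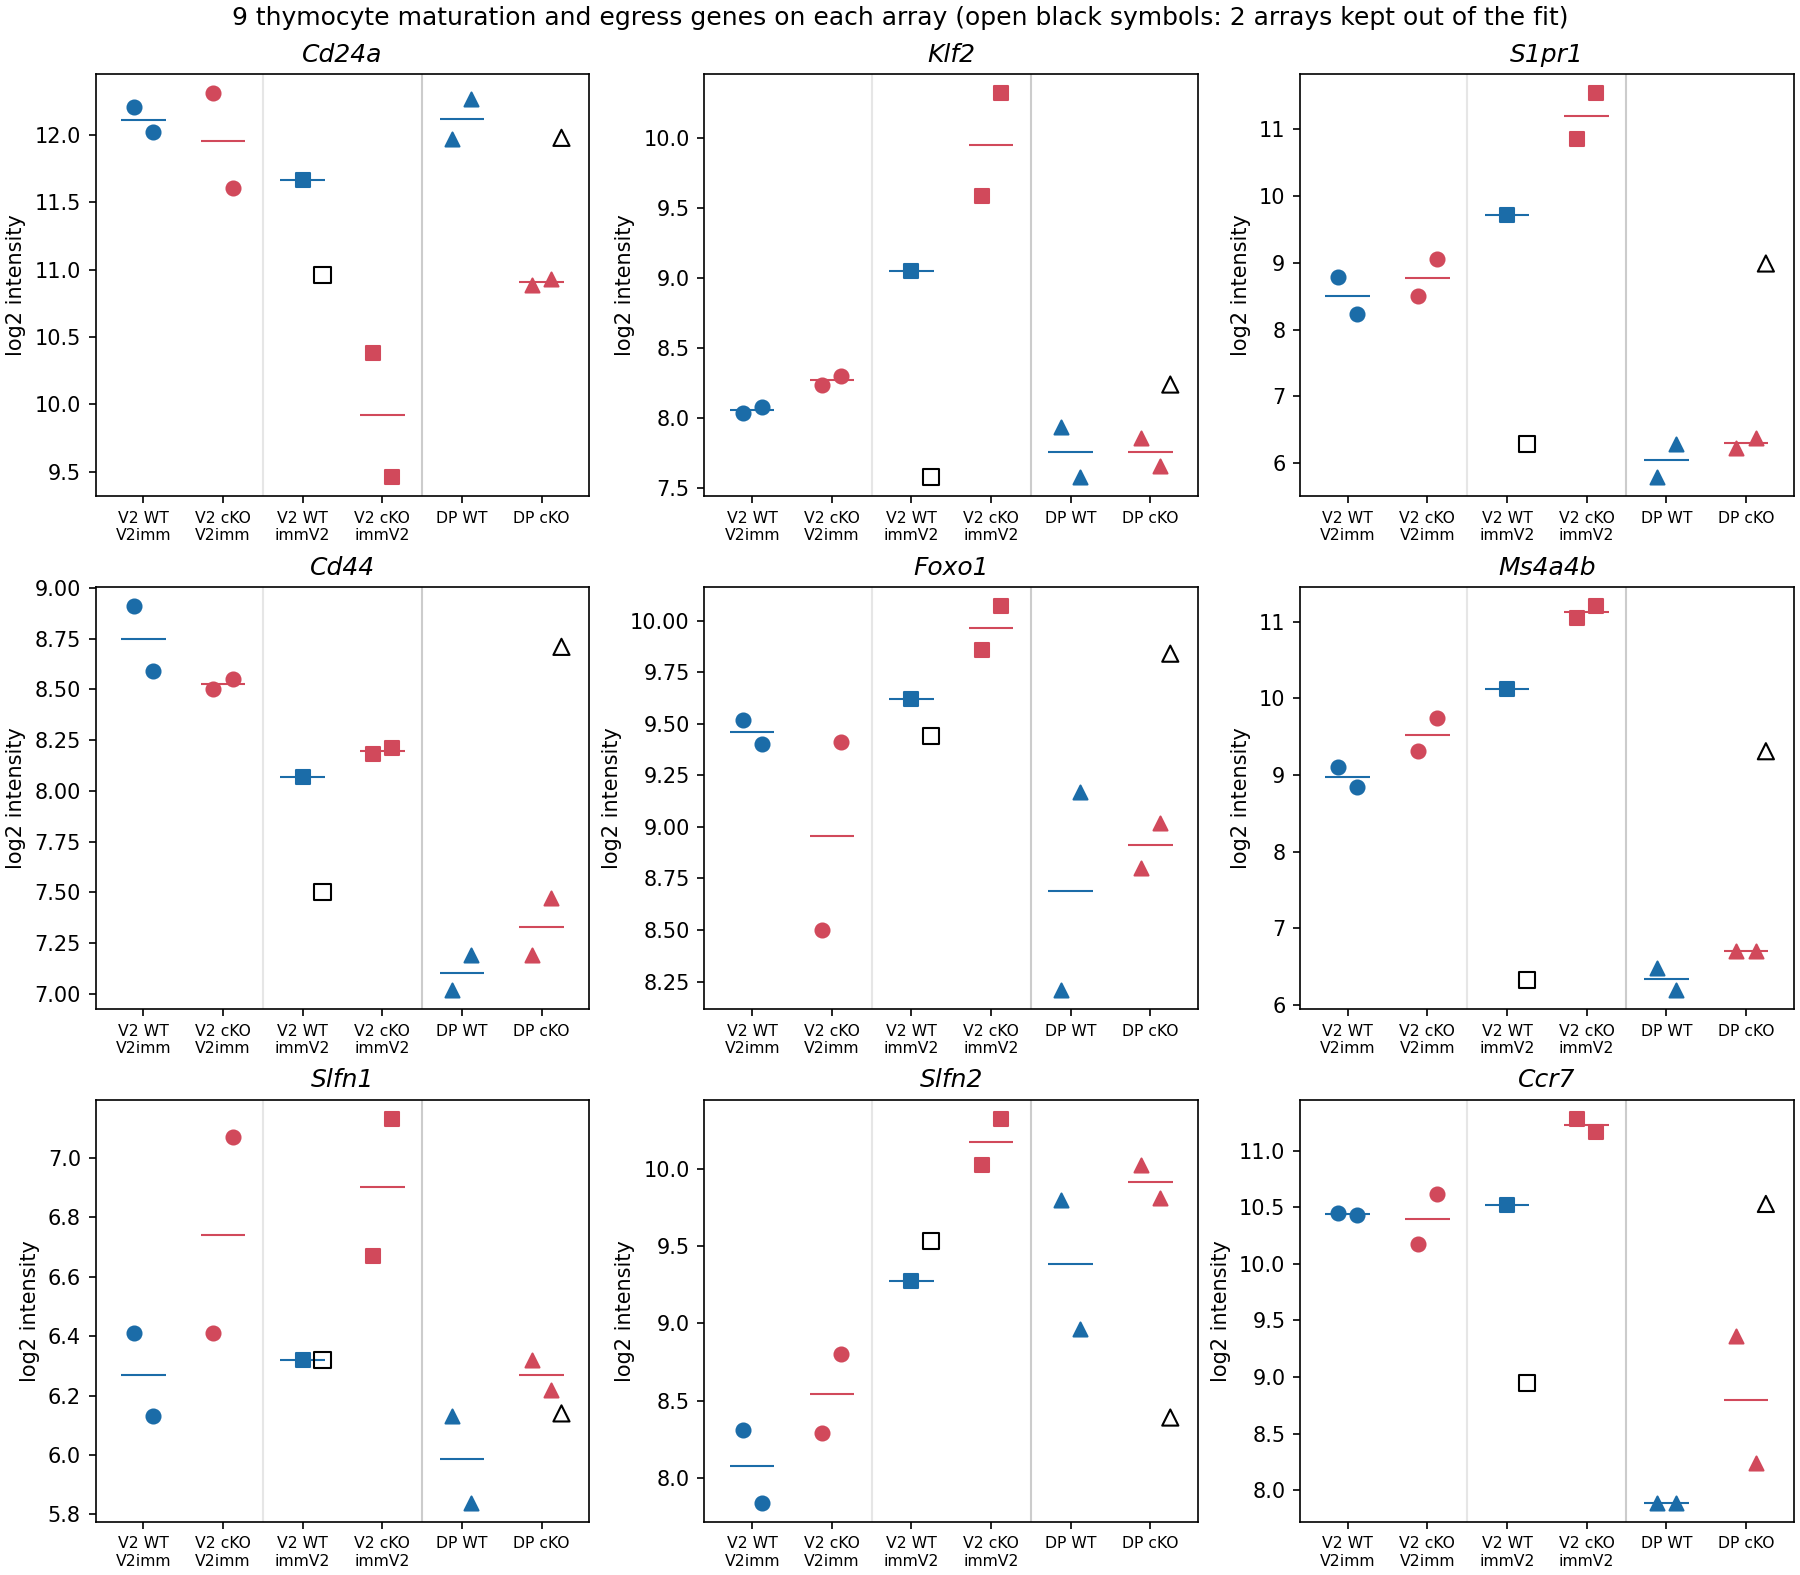
Log2 intensity (vertical axis) of the 9 genes, 1 panel per gene, on each array by group and title set (horizontal axis). Circles are V2 arrays titled V2imm, squares V2 arrays titled immV2 and triangles DP arrays, in blue for WT and red for cKO, with a line at the mean of the arrays kept. Open black symbols are the 2 arrays kept out of the fit. Klf2 lies between 8.04 and 8.30 on the circles and between 9.05 and 10.32 on the filled squares.

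Cd24a, the HSA gene, was 12.21 and 12.02 on the V2imm WT arrays and 12.31 and 11.61 on the V2imm cKO arrays. On the immV2 arrays it was 11.67 in WT and 10.38 and 9.46 in cKO. The lowest value was therefore on V2 cKO replicate 4 (immV2), and the WT array of immV2 lay within the V2imm range. The title-set difference, with both genotypes in the model, was -1.40 (SE 0.32, limma adjusted p = 0.038). That call was lost in 13 of 19 alternative settings, over which the limma adjusted p ran from 0.00615 to 0.14 and the difference from -2.04 to -1.01. A fit added after seeing the data took a separate mean for each group and title set. In it, the difference within cKO alone was -2.04 (SE 0.32, limma adjusted p = 0.00619). Within WT, with 1 immV2 array, it was -0.44 (SE 0.39).

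Foxo1, upstream of Klf2, was 9.52, 9.40, 8.50 and 9.41 on the V2imm arrays (2 WT, then 2 cKO) and 9.62, 9.86 and 10.07 on the immV2 arrays (1 WT, then 2 cKO). The sets did not overlap, but the difference of 0.67 (SE 0.28) did not pass the test (limma adjusted p = 0.251).

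Klf2, the transcription factor that controls T cell trafficking receptors, was 8.04 and 8.08 on the V2imm WT arrays and 8.24 and 8.30 on the V2imm cKO arrays. On the immV2 arrays it was 9.05 in WT and 9.59 and 10.32 in cKO. All 3 immV2 arrays lay above all 4 V2imm arrays, and the difference was 1.40 (SE 0.21, 2.65-fold, limma adjusted p = 0.00259).

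S1pr1, the egress receptor, was 8.79 and 8.23 in V2imm WT and 8.50 and 9.05 in V2imm cKO, against 9.71 in immV2 WT and 10.86 and 11.54 in immV2 cKO. Again the sets did not overlap. The difference of 1.94 (SE 0.28, 3.83-fold, limma adjusted p = 0.00212) was the largest among the 9 genes.

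Ms4a4b, a membrane protein of mature T cells, was 9.10 and 8.85 in V2imm WT and 9.31 and 9.74 in V2imm cKO, and 10.12 in immV2 WT and 11.05 and 11.20 in immV2 cKO. It differed by 1.42 (SE 0.17, 2.67-fold, limma adjusted p = 7.5e-04), with no overlap.

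Slfn2, a Schlafen gene needed for T cell quiescence, was 8.31, 7.84, 8.29 and 8.80 on the V2imm arrays (2 WT, then 2 cKO) and 9.27, 10.02 and 10.32 on the immV2 arrays (1 WT, then 2 cKO). Its difference of 1.45 (SE 0.23, limma adjusted p = 0.00503) again came with no overlap. Slfn1 was 6.13 to 7.07 on the V2imm arrays and 6.32 to 7.13 on the immV2 arrays. Its difference was 0.12 (SE 0.17, 95% interval -0.25 to 0.49), so a signal change as large as that of Slfn2 lies outside its interval. Slfn1 was dim, with 27.1% to 52.8% of genes below it on these arrays, so a larger change of its RNA was not excluded.

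Ccr7, the chemokine receptor that guides thymocytes to the medulla, was 10.18 to 10.62 in V2imm, 10.52 on the immV2 WT array and 11.28 and 11.17 on the immV2 cKO arrays. The difference of 0.53 (SE 0.25) did not pass (limma adjusted p = 0.306). Cd44, the hyaluronan receptor, went the other way, with 8.50 to 8.91 in V2imm and 8.07 to 8.21 in immV2, and its difference of -0.47 (SE 0.15) did not pass either (limma adjusted p = 0.142).

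In all, 6 of the 9 genes did not overlap between the title sets, where 14.9% of all genes did not. The median member differed by 0.67 and the median gene by -0.079. The counts within each genotype that follow come from the fit added after seeing the data. Within cKO the same 4 genes were higher and Cd24a lower, where 1.52% of all genes were called; within WT none of the 9 was called, where 0.167% of all genes were. With all 13 arrays 1 member (Slfn2) was called, where 1.56% of all genes were.

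The title sets also differed in markers of other cells and of sex. All 16 measured myeloid and dendritic cell markers had a difference below 0, where 37.1% of all genes were above 0. Of the 16, 6 were lower in immV2 by the test, where 1.1% of all genes were, among them the MHC class II genes Cd74 (-3.03, SE 0.53, limma adjusted p = 0.00898) and H2-Aa (-2.76, SE 0.54, limma adjusted p = 0.0157). The summed intensity of these markers was 3915 to 8614 on the V2imm arrays, 2532 to 3129 on the immV2 arrays and 2897 to 3861 on the DP arrays. Xist, the X-inactivation RNA, was 5.36 to 6.08 on the 3 immV2 arrays and 5.55, 11.96, 11.87 and 11.82 on the V2imm arrays. The Y-linked gene Eif2s3y was 9.29 to 9.60 on the immV2 arrays and, in the same order, 9.70, 8.77, 8.91 and 8.61 on the V2imm arrays. On DP WT replicate 5, with Xist at 12.42, it was 4.56. The 3 V2imm arrays with high Xist thus carried both signals and were not arrays of females alone. The part of other cells or of sex in the title-set result was not tested.

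Related genes moved in part with the members, against 1.4% of all genes called higher and 1.1% called lower in immV2. Of 12 measured genes of single positive maturation, 4 were higher and none lower in immV2, including the integrin gene Itgae (2.22, SE 0.26, limma adjusted p = 4.8e-04) and Cd52 (1.90, SE 0.30, limma adjusted p = 0.00432), and the list's median was 0.67. Of 26 genes of egress and migration, Itgb7 (1.88, SE 0.30) and S1pr4 (0.96, SE 0.20) were higher and 24 did not pass. Of 7 other Schlafen genes, Slfn8 (2.78, SE 0.14), Slfn5 (1.88, SE 0.16) and Slfn10-ps (0.60, SE 0.14) were higher. Of 14 other Ms4a genes, Ms4a6b was higher (1.11, SE 0.21) and Ms4a6d lower (-1.08, SE 0.18). Of 16 genes of the immature and DP stages none passed. Whether probe sets of related Slfn and Ms4a genes pick up each other's RNA was not tested.

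Between the populations, V2 cells had far more S1pr1, Ms4a4b and Ccr7 and moderately more Cd44 than DP cells, in both genotypes. With limma, 4 of the 9 genes were higher in V2 WT than in DP WT, where 3.2% of all genes were, and none was lower. Between the cKO groups 5 were higher, where 3.5% of all genes were, the fifth being Klf2. The 2 comparisons share no array, although they share the fit's estimate of the spread and the title-set term.

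S1pr1 was 5.79 and 6.29 in DP WT and 6.22 and 6.37 in DP cKO, with the lowest value below the lower quartile of all genes on its array. Its group means were 8.91 ± 0.75 (SD, n = 3) in V2 WT and 9.99 ± 1.45 (SD, n = 4) in V2 cKO, against 6.04 ± 0.35 (SD, n = 2) in DP WT and 6.30 ± 0.11 (SD, n = 2) in DP cKO. All V2 arrays lay above all DP arrays, whereas V2 WT and V2 cKO overlapped. The fitted V2 minus DP difference weighs both title sets equally, so it need not equal the difference of these means. It was 3.19 (SE 0.33, limma adjusted p = 4.7e-05) in WT and 3.69 (SE 0.31, limma adjusted p = 7.5e-06) in cKO.

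Ms4a4b was 6.49 and 6.20 in DP WT and 6.71 on both DP cKO arrays, below its lowest V2 value of 8.85. It was higher in V2 by 3.25 (SE 0.21, limma adjusted p = 6.4e-07) in WT and by 3.61 (SE 0.19, limma adjusted p = 1.3e-07) in cKO.

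Ccr7 was 7.89 on both DP WT arrays and 9.36 and 8.24 on the DP cKO arrays, below the lowest V2 value of 10.18. It was higher in V2 by 2.67 (SE 0.30, limma adjusted p = 1.2e-04) in WT and by 2.01 (SE 0.28, limma adjusted p = 7.5e-04) in cKO.

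Cd44 was 7.02 and 7.19 in DP WT and 7.19 and 7.47 in DP cKO, below its lowest V2 value of 8.07. It was higher in V2 by 1.34 (SE 0.18, limma adjusted p = 4.8e-04) in WT and by 1.03 (SE 0.17, limma adjusted p = 0.00205) in cKO.

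Klf2 was 7.94 and 7.58 in DP WT and 7.86 and 7.66 in DP cKO, just under the lowest V2 value of 8.04. It was higher in V2 cKO by 1.35 (SE 0.23, limma adjusted p = 0.00286), and the WT difference of 0.86 (SE 0.24) did not pass (limma adjusted p = 0.0675). The cKO call rested on the immV2 arrays: with the V2imm arrays alone the difference was 0.51 (limma adjusted p = 0.322). That fit was added after seeing the data.

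Cd24a did not separate the populations, with 11.97 and 12.27 in DP WT and 10.89 and 10.93 in DP cKO inside the V2 range of 9.46 to 12.31. Its difference was -0.39 (SE 0.38) in WT and 0.03 (SE 0.36) in cKO. Slfn2 was 9.80 and 8.96 in DP WT and 10.02 and 9.81 in DP cKO. Its V2 minus DP difference was -0.67 (SE 0.28, limma adjusted p = 0.271) in WT and -0.56 (SE 0.26, limma adjusted p = 0.358) in cKO. In fits added after seeing the data, the V2imm arrays alone gave Slfn2 calls against DP. These were -1.31 (limma adjusted p = 0.0499, just under the threshold) in WT and -1.37 (limma adjusted p = 0.0377) in cKO. With the immV2 arrays alone the cKO difference was 0.25, so the Slfn2 estimate varied with the title set used. Foxo1 was 8.21 and 9.17 in DP WT and 8.80 and 9.02 in DP cKO, and Slfn1 was 5.84 to 6.32 in DP; neither passed in either genotype.

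Over both genotypes 5 of the 9 genes (Klf2, S1pr1, Cd44, Ms4a4b and Ccr7) did not overlap between V2 and DP, where 8.28% of all genes did not. With the 13 arrays as labelled no member was called in either comparison, where 0.0557% of all genes were called in WT and 0.0354% in cKO.

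**Figure D2:**
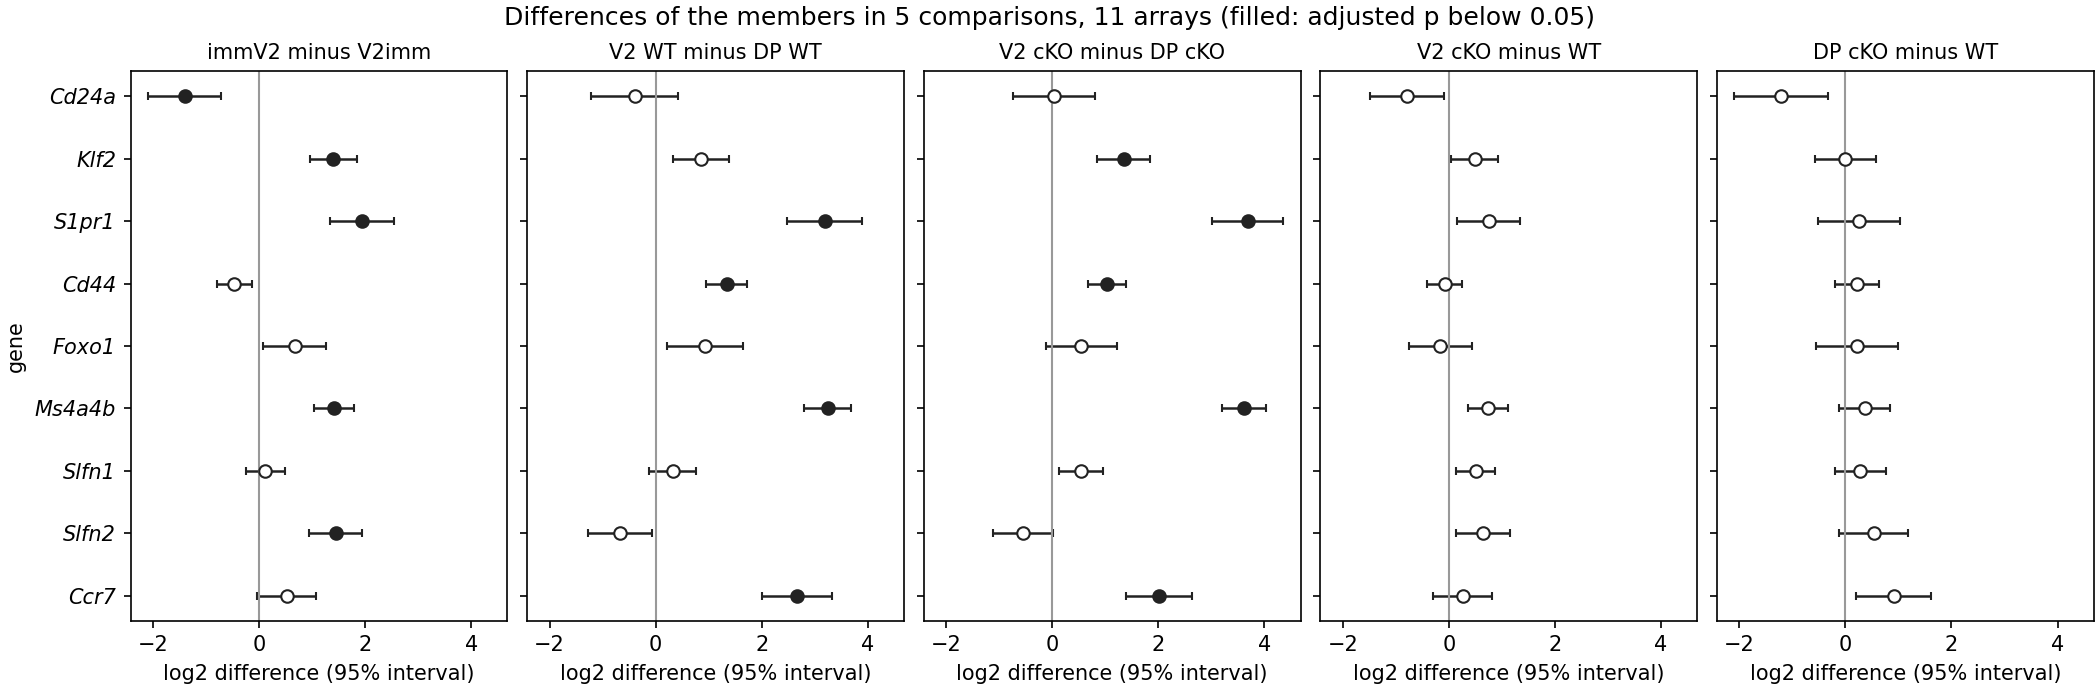
Log2 differences (horizontal axis) of the 9 genes (vertical axis) with 95% intervals in 5 comparisons of the 11 arrays, 1 panel each. Filled points passed the limma test at an adjusted p below 0.05 over all genes, as 5 genes did between the title sets, 4 and 5 between the populations and 0 for either cKO minus WT comparison.

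Other genes of these pathways differed between the populations in both directions, where 3.2% of all genes were higher and 1.67% lower in V2 WT. Of 26 genes of egress and migration, 4 were higher and 3 lower in V2 WT, with Il7r, which encodes a survival cytokine receptor (3.97, SE 0.23), and Ccr4 (1.81, SE 0.22) higher and Cxcr4 (-1.16, SE 0.24) and Klf13 (-1.13, SE 0.23) lower. Of 12 genes of single positive maturation, 3 were higher, namely the survival gene Bcl2 (2.73, SE 0.26), Itgae (3.18, SE 0.31) and Dapl1 (2.52, SE 0.40), and 3 were lower, namely Il4ra (-1.85, SE 0.19), Tnfaip3 (-0.77, SE 0.19) and Tnfrsf1a (-0.79, SE 0.20). Of 14 other Ms4a genes, Ms4a4c (2.25, SE 0.24), Ms4a6b (2.23, SE 0.25) and Ms4a6c (1.82, SE 0.28) were higher, as was Ms4a6d. Of 16 genes of the immature and DP stages 13 were lower, as their choice implies, with Rag1 at -5.97 (SE 0.18).

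Knockout against wild type gave no call for any of the 9 genes in either population. In V2, limma called 0 genes in all, with 757 of 19752 (3.83%) at an unadjusted p below 0.05. In DP it called 5, or 0.0253%, none of them a member. Every member's V2 WT and V2 cKO arrays overlapped, where 3.45% of all genes did not.

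The V2 differences were fitted with the title set in the model, so they are not differences of plain group means. Nearest to a call was Ms4a4b, whose values are given above, with 0.73 (SE 0.17, 95% interval 0.36 to 1.11, limma adjusted p = 0.31). Cd24a differed by -0.79 (SE 0.32, limma adjusted p = 0.999), S1pr1 by 0.76 (SE 0.28), Slfn2 by 0.64 (SE 0.23), Slfn1 by 0.51 (SE 0.17) and Klf2 by 0.49 (SE 0.21), none of which passed. Those 6 were at an unadjusted p below 0.05. The other 3 were Ccr7 at 0.26 (SE 0.25), Cd44 at -0.08 (SE 0.15) and Foxo1 at -0.17 (SE 0.28).

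The cKO minus WT difference was also taken within each title set, in the fit of separate means that was added after seeing the data. Cd24a differed between cKO and WT by -0.15 (SE 0.32) within V2imm and by -1.75 (SE 0.39, limma adjusted p = 0.241) within immV2, where the WT arm is 1 array assumed to vary like the other groups. S1pr1 differed by 0.27 (SE 0.30) within V2imm and by 1.49 (SE 0.36, limma adjusted p = 0.341) within immV2. The difference between these effects was -1.60 (SE 0.50) for Cd24a and 1.23 (SE 0.47) for S1pr1, and it passed for none of the 9 genes (limma adjusted p = 1 for each), so unequal effects were not shown. The array left out, V2 WT replicate 5 (immV2), was the second WT array of that set.

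In DP, Cd24a stood at 11.97 and 12.27 on the WT arrays against 10.89 and 10.93 on the cKO arrays, without overlap, a difference of -1.21 (SE 0.41) that did not pass (limma adjusted p = 1, unadjusted p = 0.0117). Ccr7 differed by 0.91 (SE 0.33, limma adjusted p = 1), Slfn2 by 0.53 (SE 0.30) and Ms4a4b by 0.37 (SE 0.22). Klf2 was equal to the second decimal, with an interval of -0.58 to 0.57. In DP 5 of the 9 genes did not overlap between the genotypes, where 29.8% of all genes did not, a large background because each group has 2 arrays. The difference between the V2 and DP effects was not called for any member or any other gene, with 1.88% of all genes at an unadjusted p below 0.05; for Cd24a it was 0.42 (SE 0.52, 95% interval -0.71 to 1.55).

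Across the 7 V2 arrays, Cd24a ran against most of the other 8 genes. Pearson's r to Cd24a was -0.96 for S1pr1, -0.95 for Klf2, -0.93 for Ms4a4b, -0.93 for Ccr7, -0.92 for Slfn2 and -0.76 for Foxo1. Each of these 6 had an adjusted p between 0.0111 and 0.0201 over the 8 relations (two-sided exact permutation test). Their Spearman's rho ran from -0.82 to -0.93, with an adjusted exact permutation p of 0.0455. The permutations moved values freely across the title sets, between which Cd24a, Klf2, S1pr1, Ms4a4b and Slfn2 were called. The arrays are thus not fully exchangeable, and these p-values are approximate. They do not separate a relation from the title-set difference. For Slfn1 r was -0.69 (adjusted exact permutation p = 0.125) with a rho of -0.68, and for Cd44 r was 0.62 (adjusted exact permutation p = 0.14) with a rho of 0.50.

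Apart from that of Ccr7, these relations rested largely on the 2 immV2 cKO arrays, which have the lowest Cd24a. Without them, over 5 arrays, r was -0.61 for Klf2, -0.69 for S1pr1, -0.73 for Ms4a4b, -0.71 for Slfn2 and -0.62 for Foxo1 (exact permutation p from 0.183 to 0.3), and -0.86 for Ccr7 (exact permutation p = 0.0333, before adjustment). Taken as residuals from the means of the title sets, r over 7 arrays was -0.94 for Klf2, -0.93 for S1pr1 and -0.83 for Ms4a4b. It was -0.82 for Slfn2 and -0.84 for Ccr7, and each of these 5 had an adjusted permutation p of 0.033. Residuals centred by set are not fully exchangeable, so their permutation p is approximate. Genotype was not removed, so the residuals still set the immV2 WT array against the 2 immV2 cKO arrays. In the residuals Foxo1 lost its call (r = -0.50, adjusted permutation p = 0.305) and Slfn1 gained one (r = -0.78, adjusted permutation p = 0.0429). With quantile normalisation Ccr7 lost its call (r = -0.92, adjusted exact permutation p = 0.0503). The 7 arrays fall in 2 title sets of 4 and 3, too few for a relation within either. Over the 4 V2imm arrays r was -0.49 for Klf2, -0.55 for S1pr1, -0.60 for Ms4a4b, -0.57 for Slfn2 and -0.88 for Ccr7, not tested.

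**Figure D3:**
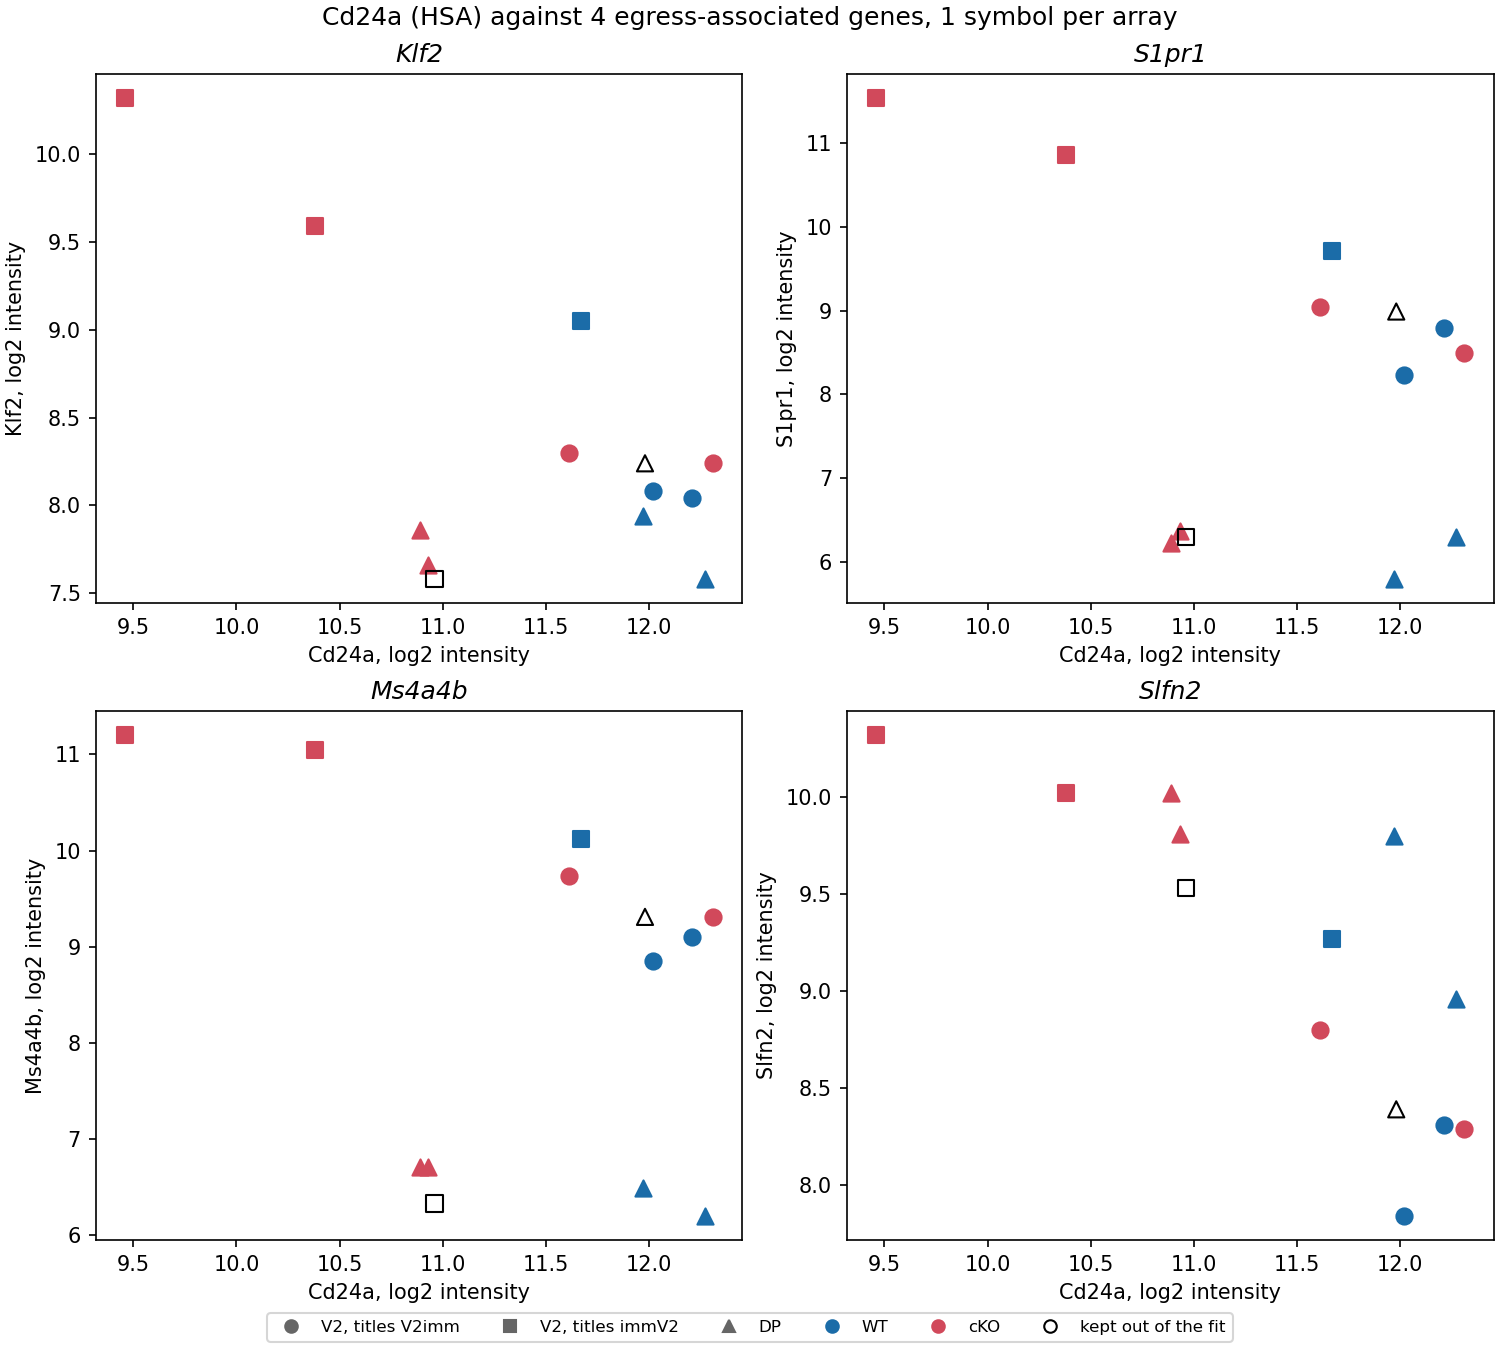
Cd24a (horizontal axis, log2 intensity) against Klf2, S1pr1, Ms4a4b and Slfn2 (vertical axes, log2 intensity), 1 symbol per array. The 2 red squares, the immV2 cKO arrays at a Cd24a of 9.46 and 10.38, hold the highest Klf2, S1pr1 and Ms4a4b, while the filled DP triangles stay at or below 6.71 for S1pr1 and Ms4a4b at every Cd24a level.

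The arrays can also be ordered one by one. Of the 8 genes other than Cd24a, 7 lay above the V2 median on each of the immV2 cKO arrays and 5 on the immV2 WT array. On V2 cKO replicate 5 (V2imm) 3 did, on each V2imm WT array 1, and on V2 cKO replicate 4 (V2imm) 0. The median came from the same 7 V2 arrays, so this order restates the title-set differences and is no separate measure of maturity. The share of all genes above their median on each array was not taken. Of the 2 arrays shown apart, DP cKO replicate 5 had all 9 genes within the range of the 7 V2 arrays (S1pr1 8.99, Ms4a4b 9.31, Cd24a 11.98) and 2 within that of the 4 DP arrays. V2 WT replicate 5 (immV2) had 6 genes within the DP range (S1pr1 6.29, Ms4a4b 6.33, Cd24a 10.96) and 4 within the V2 range. A range over 7 arrays tends to be wider than a range over 4, and the share of all genes within each was not taken.

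Among 2528 genes above the median level with a range of at least 1 over the 7 V2 arrays, those most like Cd24a were Sinhcaf (r = 0.993), Neto2 (0.975), Pde5a (0.971) and Tet1 (0.971). Those most opposed were Clcf1 (r = -0.987), Dph5 (-0.983), Lfng (-0.983) and Nfkbid (-0.977). Tet1, a DNA demethylase, was 10.65 to 11.41 on the V2imm arrays, 10.39 in immV2 WT and 9.38 and 9.13 in immV2 cKO. Lfng, a glycosyltransferase that modifies Notch, was 8.21 to 9.01 on the V2imm arrays, 8.94 in immV2 WT and 10.18 and 10.52 in immV2 cKO. Of the members in that pool, S1pr1 stood 14th, Klf2 23rd, Ccr7 60th, Ms4a4b 64th and Slfn2 71st from the opposed end. Foxo1 stood 506th, with 20% of the genes more opposed than it, and Slfn1 and Cd44 were not in the pool. In all, 5.06% of the 2528 genes had an r below -0.9.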

How the data were processed

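RNA extracted with Trizol from sorted cells was labelled with a biotin kit for whole-transcript arrays and hybridised to Affymetrix gene arrays, per the labels' protocols. The authors deposited 1 normalised intensity per probe set and array on a linear scale; the submitters' processing notes name RMA in Affymetrix Power Tools, without versions. After RMA the array medians were close (122.2 to 137.2), so a shift shared by most genes is reduced. The spreads differed more. Upper quartiles ran from 332.7 on V2 cKO replicate 4 (V2imm) to 426.2 on V2 cKO replicate 5 (V2imm). The number of arrays limits the precision.

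Of 24922 probe sets, 21425 had 1 annotated symbol, 1399 several and 2098 none listed. The brightest probe set stood for each of 19752 genes, and log2 was taken. limma 3.58.1 in R 4.3.3 (lmFit, eBayes with an intensity trend) was fitted with 4 group means and a title-set covariate, two-sided, with Benjamini-Hochberg adjustment over all genes at 0.05. It was tested on simulated data. The covariate was coded 0.5 for immV2, -0.5 for V2imm and 0 for DP, so V2 against DP weighs both title sets equally. A first fit coded 0 and 1, which sets the V2imm level against DP, was replaced after its values were seen and is given as an alternative. The members, the gene lists and the 11 arrays kept were chosen with earlier results of these data known; the V2 and DP lists hold known markers.

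Genes named are the 9 members, up to 6 called genes of each list, and the 4 genes most like and most opposed to Cd24a. That ranking left out Xist, Y-linked and receptor segment genes. Sox4 (the targeted gene), Xist and Eif2s3y are named besides as checks of the arrays. Where lists are described, some called genes are left out. Correlations used exact permutation tests (scipy 1.17.1) without regard to title set, so their p-values are approximate. Same-numbered V2imm arrays deviated from their group means with a correlation of -0.22 and the DP pair with 0.18, so replicate numbers were not taken as pairs. Alternatives covered arrays, covariate, normalisation, dim genes, moderation, probe sets, blocks and leaving out each array. Figures used matplotlib 3.10.9 in Python 3.11.15.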

Additional observations from a re-analysis of the deposited data

Results flagged for a closer look

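Ccr7 on V2 WT replicate 5 (immV2), at 8.95, lay far below the other 3 V2 WT arrays by label: its gap to the nearest made up 0.95 of the group's range, above Dixon's critical value of 0.829 for 4 samples. This is 1 of the 2 arrays kept out of the fits for carrying the other population's markers. Its Ccr7 lay within the range of the DP arrays kept (7.89 to 9.36), so the flag is not independent of those markers. The test was run on 18 groups of 4 arrays, and chance flags about 1 in 20.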

How the results depend on the processing

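The alternatives gave 1215 values for single members: 1138 kept their direction and their side of the threshold, 34 lost a call, 14 gained one, 23 changed sign and 6 correlations moved by 0.1 or more. Without the title-set covariate S1pr1 lost its call between V2 WT and DP WT (limma adjusted p = 0.0629) and Klf2 that between the cKO groups (limma adjusted p = 0.264). The covariate coded 0 and 1, which was fitted first and became the alternative after seeing the data, called 1091 genes and 5 members in WT and 1085 genes and 5 members in cKO; Slfn2 was then lower in V2 (-1.39 and -1.28) and Klf2 lost its cKO call. Signal was low for Slfn1, which the filter on dim genes left out.

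For V2 cKO minus WT, 0 genes became 13 with quantile normalisation, 1 among brighter genes and 6 with robust moderation. For DP cKO minus WT, 5 became 0 with 13 arrays, 3 without the covariate, 9 with quantile normalisation and 0 with DP arrays only. For V2 WT minus DP WT, 962 became 11 with 13 arrays (4 members became 0) and 594 without the covariate. For V2 cKO minus DP cKO, 1076 became 7 with 13 arrays (5 members became 0) and 637 without the covariate. For the title sets, 494 became 309 with 13 arrays (5 members became 1) and 320 among brighter genes. Except where an alternative tests fewer genes or other arrays, the cause was not tested.

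A replicate block by number gave 5 genes for V2 cKO minus WT and, within title sets, 34, with 8 for DP; it gave 202 genes and 3 members for the title sets, where Cd24a and Slfn2 lost their calls, and Foxo1 gained one between V2 WT and DP WT (limma adjusted p = 0.0471). It changed no other member's call. With crossed V2imm numbers the block within title sets, chosen after seeing the data, called 0 genes in V2 and 0 in DP.

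Leaving out 1 array at a time, the genes called were 0 to 44 for V2 cKO minus WT, 0 to 14 for DP cKO minus WT, 0 to 4 for the difference of those effects, 477 to 1575 for V2 WT minus DP WT, 480 to 1632 for V2 cKO minus DP cKO and 207 to 4358 for the title sets. The extremes came without V2 cKO replicate 5 (V2imm) at 44 and 4358, DP WT replicate 3 at 477 and V2 cKO replicate 4 (V2imm) at 1575 and 1632, DP cKO replicate 3 at 480 and V2 cKO replicate 3 (immV2) at 207. The members called were 4 to 6 in each of the last 3 comparisons and 0 in the others. Where an arm keeps 1 array, it is assumed to vary like the other groups.

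Leaving out 1 array changed the sign of values that had not passed: in V2 cKO minus WT, Cd44 (-0.23 to 0.03), Foxo1 (-0.51 to 0.15) and Ccr7 (-0.04 to 0.45); in DP cKO minus WT, Klf2 (-0.18 to 0.18) and Foxo1 (-0.26 to 0.70); in the difference of those effects, Foxo1 (-0.86 to 0.09) and Slfn2 (-0.31 to 0.53); Cd24a in V2 cKO minus DP cKO (-0.25 to 0.35) and Slfn1 between title sets (-0.06 to 0.27). Other settings did so too. In V2 cKO minus WT, Cd44 was 0.09 with 13 arrays and 0.13 within immV2, Foxo1 was 0.35 within immV2 and Ccr7 was -0.04 within V2imm. In DP cKO minus WT, Klf2 was 0.16 with 13 arrays. Cd24a in V2 WT minus DP WT was 0.31 with the 0 and 1 coding. In V2 cKO minus DP cKO, Cd24a was -0.33 with 13 arrays and -0.99 with the immV2 arrays only, and Slfn2 was 0.25 with the immV2 arrays only. The fits against DP with the arrays of a single title set were added after seeing the data. The r of Cd44 to Cd24a was -0.21 in residuals from title-set means.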
